A study of Mus musculus with 8 samples.

Results

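The comparison described here sets organoids cultured with CHIR99021, an inhibitor of the kinase GSK3, against organoids in control medium. It rests on 4 of the 8 arrays of the study: 2 CHIR99021 arrays and 2 control arrays, 1 of each for each of 2 organoid lines. Both lines were wild-type, made independently from mouse small intestine and grown in Matrigel. The CHIR99021 cultures received 3 µM of the compound and no valproic acid for 6 days, and the control cultures received neither. The other 4 arrays hold organoids given 1 mM valproic acid (VPA, an inhibitor of histone deacetylases), alone or with 3 µM CHIR99021. The lines' strain, sex and age are not stated in the labels used here, and an organoid holds the epithelium without the connective tissue, vessels and immune cells of the gut.

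GSK3 is the kinase that marks beta-catenin for destruction, in a complex with Axin, APC and casein kinase 1. When GSK3 is blocked, as Wnt ligands do in the crypt, beta-catenin builds up and switches on target genes together with TCF/LEF factors at the DNA. In the intestine this signal keeps crypt stem cells and Paneth cells, while cells that leave the crypt become absorptive enterocytes or secretory goblet, tuft and enteroendocrine cells. GSK3 also acts on glycogen synthase and on many proteins outside the Wnt pathway.

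Each array held the sample's RNA in the dye Cy5 and control RNA of the same line in Cy3, so that on a control array both dyes held control RNA. A ratio below is the log2 of Cy5 over Cy3 on 1 array. On a control array, a ratio away from 0 shows no difference in RNA between samples. A difference is the CHIR99021 ratio minus the control ratio of the same line, averaged over the 2 lines (n = 2 arrays per group). The value after ± is limma's standard error of the difference between group means, not paired by line. Its variance estimate draws on all 4 groups, VPA arrays included. Adjusted p-values are limma's, with Benjamini-Hochberg adjustment over all genes tested, and "rose" and "fell" are used only where this value was under 0.05. The p-values rest on the spread between 2 lines, and the control arrays carry no spread between control cultures because each read its own RNA. The variance estimate can thus be too small and the p-values too low. RNA of whole organoids was measured, so fewer cells of a type and less RNA per cell cannot be told apart.

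On the 4 arrays, 60.6% to 63.4% of spots stood clearly above background in Cy5. Across genes, ratios spread with an SD of 0.23 (line 1) and 0.20 (line 2) in control and of 0.42 and 0.38 with CHIR99021. All 12 listed markers of intestinal epithelium were measured, among them Epcam, Cdh1, Vil1 and Cdx2. Their differences had a median of -0.08, and 1 of them, the keratin Krt8, fell, against 1.01% of all genes. With the organoid line as a block in limma's fit, Lgals4 fell too (-0.89 ± 0.16, adjusted p = 0.0276 against 0.0595 without the block). Of the listed markers of immune cells 8 of 14 passed the filter on dim probes, of mesenchyme and muscle 8 of 12, of endothelium, nerve and glia 5 of 12, and of stomach, colon and pancreas 6 of 14. Some listed markers of these other tissues were not well above background in both arrays of any group and went untested. They included Cd3g, Itgam and Tyrobp, Col3a1 and Dcn, Pecam1 and Cdh5, and Gkn1, Ptf1a and Cpa1. Markers that did pass the filter included Ptprc, Cd4 and Csf1r, Col1a2, Pdgfrb and Acta2, Elavl4, and Car1 and Pdx1. None of these 4 lists had a member that passed by limma, and their medians lay between -0.06 and 0.13.

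CHIR99021 lowered many more genes than it raised. The lists with the most falls were fat absorption (10 of 33 tested genes), nutrient and ion carriers (8 of 52) and drug metabolism (8 of 57), and the genes that rose included the Wnt feedback gene Nkd1 and the Wnt carrier gene Wls. Of 19255 genes tested, 216 passed the threshold (1.12%): 194 fell (1.01%) and 22 rose (0.114%), and 2472 had an unadjusted p under 0.05. The genes that fell had a median difference of -1.04, from -0.51 to -3.60. Those that rose had a median of 0.80, from 0.54 to 1.98. Over all genes the median was 0.01, and 35.0% of genes were higher in both lines and 32.4% lower in both. In both lines at once, 196 genes (1.02%) lay over 2-fold lower and 13 (0.0675%) over 2-fold higher; over 4-fold, the counts were 37 lower and 0 higher. No gene moved over 2-fold up in a line and over 2-fold down in the other. Both CHIR99021 ratios lay below both control ratios for 4874 genes (25.3%) and above them for 5112 (26.5%).

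These counts changed with the fit. With the organoid line as a block, 479 genes fell (2.49%) and 78 rose (0.405%), and all 216 genes were among them. With only the 4 arrays of the comparison fitted, 827 fell and 257 rose, so rises made up 23.7% of the calls against 10.2%. The variance of that fit rests in part on the control arrays, which carry no spread between control cultures. With treated ratios tested against 0 without the control arrays, 1226 fell and 1341 rose. That test does not subtract the control ratios, which correlated between the 2 lines (r = 0.823 across genes). Whether these features made the added calls was not tested. The array of CHIR99021 line 1 held 34 spots whose local background was marked as an outlier. When spots marked as outliers stayed in the background fit, 0 genes passed by limma and 1563 had an unadjusted p under 0.05. Leaving out control line 1, control line 2 or CHIR99021 line 2 left 1 gene, and leaving out CHIR99021 line 1 left 16; each such fit has a group of 1 array, whose spread is taken from the other groups. The sugar transporter gene Slc5a4b was among them each time. All 216 genes kept their direction under the settings that tested them.

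**Figure D1:**
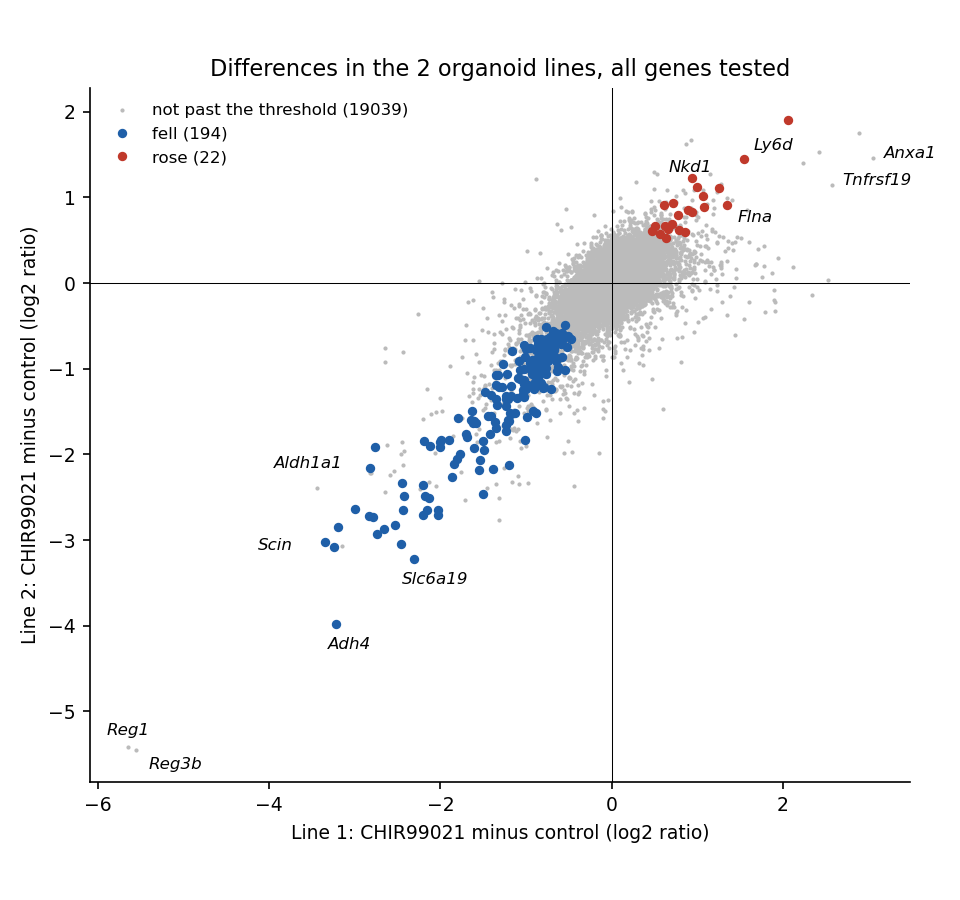
Each point is 1 of the 19255 genes tested; the x axis gives the difference (CHIR99021 minus control, log2 ratio) in organoid line 1 and the y axis that in line 2. The 194 genes that fell (blue) reach further from 0, down to a mean of -3.60, than the 22 that rose (red), up to 1.98; Reg1 and Reg3b, at the lower left, did not pass.

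Neither GSK3 gene passed the test at the RNA level, and neither did the other listed members of the destruction complex. CHIR99021 acts on the GSK3 protein, so the transcripts are no check of the treatment. Gsk3b, which encodes the beta form of the kinase, had ratios of -0.45 and -0.46 in control (lines 1 and 2) and -0.25 and -0.48 with CHIR99021. The groups overlapped (difference 0.10 ± 0.11, adjusted p = 0.825). Ctnnb1, which encodes beta-catenin, read 0.06 and 0.21 in control and 0.23 and 0.16 with CHIR99021, again with overlap (0.06 ± 0.09, adjusted p = 0.865). Of 27 tested genes for GSK3, the destruction complex and partners of beta-catenin, 0 passed and the median was 0.06. With the line as a block, 1 of them rose and 1 fell, against 0.405% and 2.49% of all genes. The casein kinase gene Csnk1e had a difference of 0.48 ± 0.09 (adjusted p = 0.0826, and 0.0464 with the block). The co-repressor gene Tle2 had -0.64 ± 0.14 (0.121, and 0.0418 with the block).

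Frat1 and Frat2, which encode proteins that bind GSK3 in competition with Axin, fell together. They were chosen after their values were seen and stand in no list. Frat1 had ratios of -0.55 and -0.58 in control and -2.18 and -2.22 with CHIR99021. Frat2 had -0.34 and -0.16 in control and -1.98 and -1.75 with CHIR99021. For both genes the CHIR99021 arrays lay far below the control arrays in each line. The differences were -1.63 ± 0.17 (adjusted p = 0.0175) for Frat1 and -1.62 ± 0.23 (adjusted p = 0.0391) for Frat2. The 2 genes are neighbours in the mouse genome.

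Among 23 tested Wnt targets and feedback genes, 1 rose, 0 fell and 22 did not pass, against 0.114% of all genes that rose. Their median difference was 0.35, against 0.01 over all genes, and 19 of the 23 were above 0. Nkd1, a feedback inhibitor that binds Dishevelled, was the gene that rose. Its ratios were 0.19 and 0.31 in control and 1.44 and 1.41 with CHIR99021, so the groups lay well apart (1.18 ± 0.14, a 2.26-fold rise, adjusted p = 0.0254). A second Nkd1 probe gave 0.22. Axin2, the feedback gene most used as a readout of the pathway, had ratios of 0.06 and 0.06 in control and 0.88 and 0.62 with CHIR99021. The groups did not overlap, but the difference of 0.69 ± 0.17 did not pass (adjusted p = 0.150). Tcf7, which encodes the factor TCF1, was near the threshold at 0.71 ± 0.14 (adjusted p = 0.0909). Tnfrsf19, the receptor known as Troy, had a larger and less even difference: its ratios were -0.13 and 0.08 in control and 2.44 and 1.23 with CHIR99021 (1.86 ± 0.54, adjusted p = 0.210). Myc and Ephb3, both known targets in the crypt, had differences of -0.17 ± 0.30 and 0.06 ± 0.18, and neither passed.

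Wnt ligands and receptors split between a pair of genes that rose and a list with a median of 0.01. Of 30 tested, 2 rose and 0 fell, against 0.114% of all genes that rose. Wls, the carrier that brings Wnt proteins to the cell surface, had ratios of -0.11 and -0.11 in control and 0.60 and 0.82 with CHIR99021 (0.82 ± 0.13, adjusted p = 0.0462). Wnt10a, a ligand, had -0.08 and -0.09 in control and 0.77 and 0.50 with CHIR99021 (0.72 ± 0.11, adjusted p = 0.0423). In each case both CHIR99021 arrays lay above both control arrays. Wnt3, the ligand that Paneth cells give to stem cells, had a difference of 0.70 ± 0.27, and Fzd5, a receptor of the crypt, had -0.68 ± 0.16. Neither passed (adjusted p = 0.344 and 0.140).

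None of the 25 tested crypt stem cell genes passed in the fit without a block, while their median was 0.37 and in 18 of them both CHIR99021 ratios lay above both control ratios (26.5% of all genes). Lgr5, the receptor for R-spondins that marks these cells, had uneven control arrays. Its ratios were 0.36 and -0.13 in control and 1.28 and 0.74 with CHIR99021. The groups did not overlap, and the difference of 0.90 ± 0.35 did not pass (adjusted p = 0.344). Ascl2, a transcription factor of stem cells, had a difference of 0.10 ± 0.14. Soat1, which stores cholesterol as esters, had ratios of -0.12 and -0.07 in control and 0.73 and 0.98 with CHIR99021, and its 3 probes gave 0.95, 0.66 and 0.72. It rose with the line as a block (adjusted p = 0.015) and not without (0.0797).

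**Figure D2:**
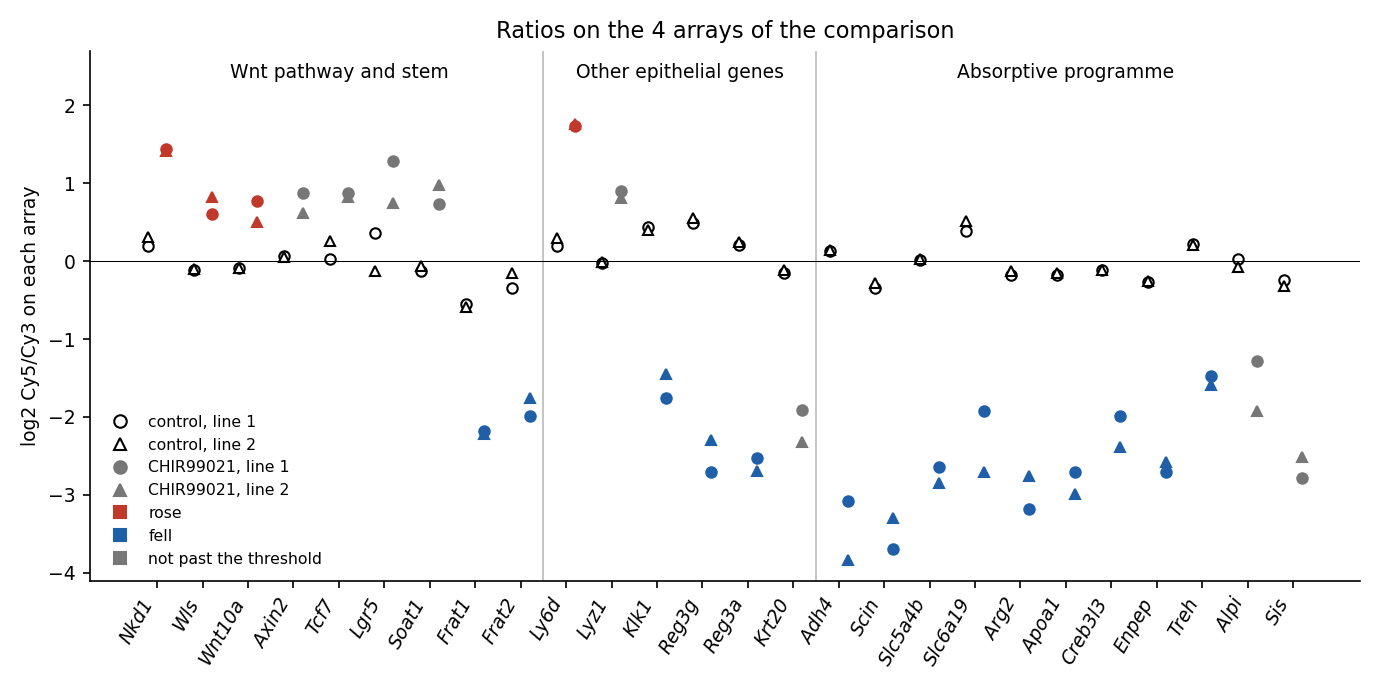
Log2 Cy5/Cy3 ratios on the y axis for selected genes on the x axis, with open symbols for the 2 control arrays and filled symbols for the 2 CHIR99021 arrays (circles, line 1; triangles, line 2). Genes that fell are blue, genes that rose red and genes that did not pass grey; with CHIR99021 Adh4 lies at -3.08 and -3.83 and Ly6d at 1.73 and 1.75, far from their control arrays.

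Genes of cell division had small positive differences, and 0 passed by limma with or without the block. By their brightest probe, all 29 tested genes of G2/M and mitosis were above 0, from 0.02 to 0.50, with a median of 0.31. Other probes gave -0.17 for Anln, -0.004 for Bub3, 0.07 for Cdk1, and 0.41 and 0.24 for Cenpe. In 26 of these 29 genes both CHIR99021 ratios lay above both control ratios, against 26.5% of all genes. Mki67, the marker of cycling cells, read -0.36 and -0.34 in control and 0.26 and -0.11 with CHIR99021 (0.42 ± 0.23, adjusted p = 0.531). Of 33 genes of DNA replication and G1/S, 31 were above 0 (median 0.22, against 0.01 over all genes). Of 29 genes of ribosome biogenesis and Myc response, 27 were above 0 (median 0.24). Among these 29, 1 rose, against 0.114% of all genes: Npm1, the nucleolar chaperone, at 0.58 ± 0.09 (adjusted p = 0.0497). With the block, Tfb2m, a factor of mitochondrial transcription, fell (-0.50 ± 0.11, adjusted p = 0.0418), against 2.49% of all genes that fell.

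Among 6 inhibitors of cyclin-dependent kinases, Cdkn2b, which encodes p15 and holds back G1 kinases, fell alone, against 1.01% of all genes that fell. Its ratios were -0.06 and -0.05 in control and -1.29 and -1.48 with CHIR99021, with no overlap (-1.33 ± 0.11, a 2.52-fold fall, adjusted p = 0.0135). Cdkn1a, for p21, went opposite ways in the lines (0.56 in line 1 and -0.76 in line 2), and Cdkn1b, for p27, had a difference of 0.11. Of 22 genes of the p53 response and apoptosis, 0 passed without the block. With it 3 fell, against 2.49% of all genes. Among them were the death receptor gene Fas and Bbc3, for the death-promoting protein PUMA (adjusted p = 0.0285 and 0.0268). Ccng2, a cyclin linked to arrest that was chosen after its values were seen, had ratios of -0.10 and 0.00 in control and -0.94 and -1.05 with CHIR99021 and fell (-0.95 ± 0.09, adjusted p = 0.0145).

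Transcripts of brush border enzymes and of the microvillus core were among those that fell. Of 22 brush border enzymes and cubilin complex genes, 4 fell, against 1.01% of all genes, and 0 rose. With the line as a block 11 fell, against 2.49% of all genes. The median was -0.78, and 17 had both CHIR99021 ratios below both control ratios (25.3% of all genes). Treh, which splits trehalose, had ratios of 0.22 and 0.21 in control and -1.47 and -1.59 with CHIR99021. The arrays of each group lay close together and the groups far apart (-1.75 ± 0.13, adjusted p = 0.0126). The other falls were those of Enpep, aminopeptidase A (-2.39 ± 0.24), Mep1b, meprin beta (-1.44 in line 1 and -1.56 in line 2), and Ggt1, gamma-glutamyltransferase (-1.66 ± 0.25). Sis, sucrase-isomaltase, had ratios of -0.24 and -0.32 in control and -2.78 and -2.52 with CHIR99021. Its difference of -2.37 ± 0.56 passed only with the block (adjusted p = 0.0415 against 0.139). Alpi, intestinal alkaline phosphatase, also passed only with the block (-1.58 ± 0.34, adjusted p = 0.0148 against 0.109), and a second probe gave -0.49. Lct, lactase, and Dpp4, a dipeptidyl peptidase, had differences of -0.63 and -0.03 and did not pass.

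Of 25 genes of microvillus structure, 4 fell, against 1.01% of all genes, and 0 rose (median -0.50). With the block 9 fell, against 2.49% of all genes. Scin, an actin-severing protein, had ratios of -0.35 and -0.27 in control and -3.70 and -3.30 with CHIR99021, a 9.10-fold fall (-3.19 ± 0.34, adjusted p = 0.0183). The scaffold gene Pdzk1 had -0.17 and -0.08 in control and -1.53 and -1.70 with CHIR99021 (-1.49 ± 0.10, adjusted p = 0.0106). For both genes every CHIR99021 array lay below every control array. Myo1a, the brush border myosin, fell (-1.25 ± 0.13), as did Clic5 (-1.97 ± 0.26, with a second probe at -1.31). Villin, Vil1, had a difference of -0.69 ± 0.18 and did not pass (adjusted p = 0.175).

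Promoters of 3 genes that fell are shown because each holds the letters CAAAGTNCA, a core bound by HNF4-type nuclear receptors, which run the absorptive programme. The windows run from 250 bases before to 50 after the gene's start, on the gene's strand, from RefSeq build GRCm38.p6. Capitals mark the match. Treh lies on the plus strand at chr9:44672983-44673282, Adh4, an alcohol dehydrogenase, on the plus strand at chr3:138415247-138415546, and Pdzk1 on the plus strand at chr3:96829815-96830114.
Treh: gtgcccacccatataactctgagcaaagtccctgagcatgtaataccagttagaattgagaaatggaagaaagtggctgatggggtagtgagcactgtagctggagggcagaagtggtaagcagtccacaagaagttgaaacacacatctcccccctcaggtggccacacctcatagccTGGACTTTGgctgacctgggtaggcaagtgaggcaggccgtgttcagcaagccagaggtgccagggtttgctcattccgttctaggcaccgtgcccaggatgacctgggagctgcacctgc
Adh4: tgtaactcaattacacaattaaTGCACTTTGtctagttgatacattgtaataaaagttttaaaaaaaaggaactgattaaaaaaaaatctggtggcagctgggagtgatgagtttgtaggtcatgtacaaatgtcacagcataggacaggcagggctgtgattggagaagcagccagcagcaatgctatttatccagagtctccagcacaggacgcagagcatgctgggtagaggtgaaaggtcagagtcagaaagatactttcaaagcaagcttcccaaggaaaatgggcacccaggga
Pdzk1: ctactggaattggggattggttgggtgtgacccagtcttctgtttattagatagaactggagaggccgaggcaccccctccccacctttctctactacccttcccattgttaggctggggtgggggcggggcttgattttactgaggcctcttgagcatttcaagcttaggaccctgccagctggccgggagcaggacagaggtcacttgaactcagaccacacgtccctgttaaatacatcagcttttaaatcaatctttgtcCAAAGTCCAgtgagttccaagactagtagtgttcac
The match starts at base 180 of the window for Treh and base 23 for Adh4, on the opposite strand in both, and at base 265 for Pdzk1, on the gene's own strand and just after the start. Searched on both strands, these letters stood in 1.41% of all 32851 promoter windows. They stood in 7 of the 146 genes that fell and had a window (4.79%: Treh, Adh4, Pdzk1, Slc3a1, Apobec1, Cfhr2 and Osbpl6), against 174 of 11178 tested genes with a window (1.56%). They stood in 0 of the 16 genes that rose and had a window. A match is a string of letters in this window and shows no binding.

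Fat absorption held the largest number of falls of any list. Of 33 tested genes, 10 fell, against 1.01% of all genes, and 0 rose, with a median of -0.88. With the block 15 fell, against 2.49% of all genes, and 1 rose, Scarb1. Along the path of dietary fat, the falls took in uptake by Npc1l1 for cholesterol (-0.91 ± 0.09) and Slc27a4 for fatty acids (-0.92), and triglyceride synthesis by Mogat2 (-1.67) and Dgat1 (-1.28 ± 0.11, adjusted p = 0.0142). They also took in particle loading by Mttp (-0.98 ± 0.10) and Cideb (-0.83), apolipoprotein B editing by Apobec1 (-0.96 ± 0.14, with a second probe at -0.16), and export by Sar1b (-0.59). Apoa1, an apolipoprotein of chylomicrons and high density lipoprotein, had ratios of -0.18 and -0.16 in control and -2.71 and -2.99 with CHIR99021 (-2.68 ± 0.31, adjusted p = 0.0213). Creb3l3, a membrane-bound factor that drives lipid genes, had -0.11 and -0.12 in control and -1.98 and -2.39 with CHIR99021 (-2.07 ± 0.24, adjusted p = 0.0213). For both genes the control arrays lay close together and every CHIR99021 array lay below them. Fabp1, a fatty acid binding protein, was uneven: its ratios were 0.36 and 0.49 in control and -0.95 and -2.01 with CHIR99021 (-1.91 ± 0.60, adjusted p = 0.248).

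Among 37 PPAR response and fatty acid oxidation genes, 7 fell with the block, against 2.49% of all genes. Without it 3 fell, against 1.01% of all genes, and 0 rose (median -0.28). They included the nuclear receptor Ppara (-0.89 ± 0.12, adjusted p = 0.0312) and the thiolase Acaa2 (-0.72 ± 0.11). Of 26 retinol genes, 4 fell, against 1.01% of all genes, and 0 rose (median -0.27). With the block 9 fell, against 2.49% of all genes. Adh4 had the largest fall among the genes that passed. Its ratios were 0.14 and 0.14 in control and -3.08 and -3.83 with CHIR99021, a 12.1-fold fall (-3.60 ± 0.38, adjusted p = 0.0179). Adh1, of the same gene cluster, fell (-2.78 ± 0.37), and so did Aldh1a1, which makes retinoic acid (-2.49 ± 0.32). Adh7 fell too (-0.88 ± 0.14); its probe was not well above background on either CHIR99021 array, so its level there is only a bound. Probes of this gene family may cross-hybridise. Of 18 genes of arginine and the urea cycle, Arg2, the mitochondrial arginase, fell (-0.18 and -0.13 in control, -3.18 and -2.76 with CHIR99021; -2.82 ± 0.28, adjusted p = 0.0173). Ass1, which makes argininosuccinate, had a difference the other way (1.14 ± 0.27, adjusted p = 0.130).

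Of 52 nutrient and ion carriers, 8 fell, against 1.01% of all genes, and 0 rose (median -0.20). With the block 15 fell, against 2.49% of all genes, and 1 rose, the amino acid exchanger Slc7a5. Slc6a19, the carrier of neutral amino acids, had ratios of 0.39 and 0.51 in control and -1.92 and -2.71 with CHIR99021 (-2.76 ± 0.25, adjusted p = 0.0142). Further falls were those of Slc51a, a subunit of the bile acid exporter (-1.77 ± 0.12), the anion exchangers Slc26a6 (-1.52 ± 0.14) and Slc26a3 (-1.14 ± 0.10), and Slc3a1, the cystine carrier's heavy chain (-1.35 ± 0.16). Slc5a4b, of the sodium and glucose carrier family, stood outside the list among the 15 largest falls. It had ratios of 0.01 and 0.03 in control and -2.64 and -2.84 with CHIR99021, and 3 probes that gave -2.76, -2.52 and -2.62. It had the smallest adjusted p of all genes (-2.76 ± 0.10, adjusted p = 0.00056) and passed when any of the 4 arrays was left out, where the lone array of a group is assumed to vary like the other groups. Slc12a2, a chloride carrier of crypt cells, had a difference of 0.38, and Slc2a1, a glucose carrier, of 0.61; neither passed.

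Of 57 genes of drug metabolism and conjugation, 15 fell with the block, against 2.49% of all genes. Without it 8 fell, against 1.01% of all genes, and 0 rose (median -0.81). They included Cyp4f14 (-1.72 ± 0.14), Nr1i3, the receptor CAR that senses foreign compounds (-1.35 ± 0.11), and the carboxylesterase Ces2e (-1.35 ± 0.14). Ugt2b5, which links glucuronic acid to substrates, had ratios of 0.20 and 0.13 in control and -2.59 and -2.59 with CHIR99021 (-2.75 ± 0.30, adjusted p = 0.0198). Its relatives Ugt2b36 (-2.28), Ugt2b37 (-2.32) and Ugt2b38 (-2.46) fell too; they are alike in sequence and their probes may read each other. Cyp2c55 went the other way without passing (1.82 ± 0.51, adjusted p = 0.193). None of the 26 NRF2 and metallothionein genes passed by limma, with or without the block (median -0.15); Mt2, a metallothionein, had -0.93 ± 0.30.

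**Figure D3:**
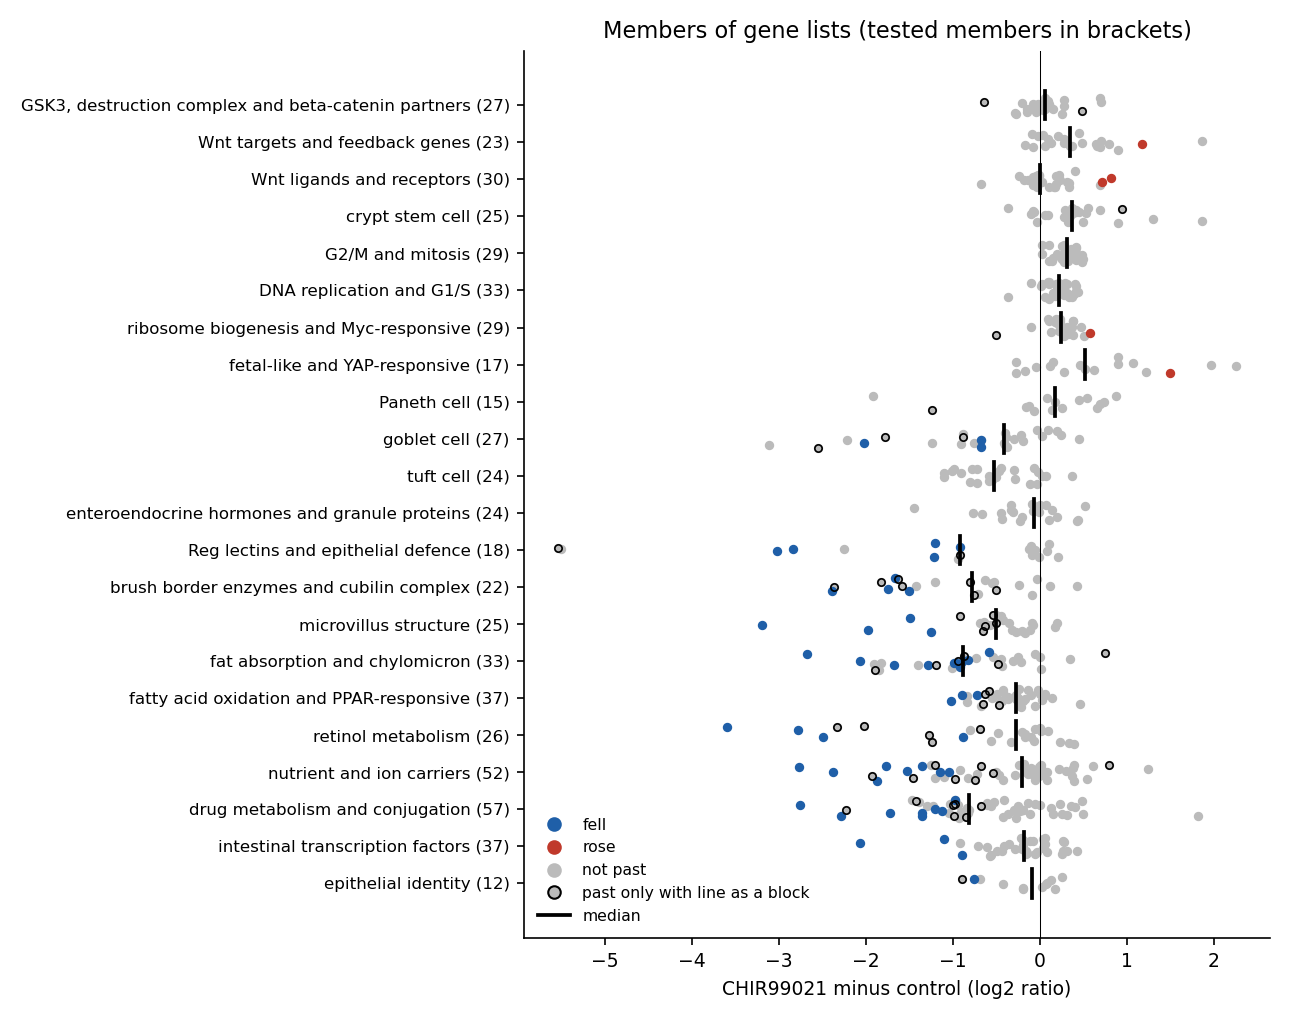
Each point is a tested member of the list named on the y axis, at its difference (CHIR99021 minus control, log2 ratio) on the x axis; bars are medians, and black rings mark members that passed only with the line as a block. Members of the brush border, microvillus and fat absorption lists spread to the left, with medians of -0.78, -0.50 and -0.88, while G2/M genes sit in a narrow band above 0.

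Of 37 intestinal transcription factors, 3 fell and 0 rose (median -0.18): Creb3l3, Ppara and Hnf4g. Hnf4g, which works with Hnf4a in enterocytes, had ratios of 0.06 and 0.07 in control and -0.97 and -1.11 with CHIR99021 (-1.10 ± 0.17, adjusted p = 0.0447), and a dimmer probe gave -0.30. Hnf4a (-0.19), Cdx2 (0.26) and Gata4 (-0.08) were near 0 and did not pass. Genes that mark zones along the villus overlap the lists above. All 6 tested genes of the bottom, all 11 of the middle and 9 of 11 of the tip had differences below 0. Those of the bottom and middle were lower in both lines, against 32.4% of all genes. Of all genes 1.01% fell, or 2.49% with the block. The median was -1.99 for 6 genes of the bottom (1 fell, 3 with the block), -1.21 for 11 of the middle (3 fell, 5 with the block) and -0.57 for 11 of the tip (2 fell, 3 with the block). Krt20, the keratin of shed and upper villus cells, had ratios of -0.16 and -0.12 in control and -1.91 and -2.32 with CHIR99021. It passed only with the block (-1.98 ± 0.40, adjusted p = 0.025 against 0.0912). Ada, a tip marker that breaks down adenosine, had a difference of 0.56 ± 0.13 and did not pass.

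Reg lectins, small secreted proteins of gut defence, gave the lowest CHIR99021 ratios on the 2 arrays. Of 18 Reg and defence genes, 5 fell, against 1.01% of all genes, and 0 rose (median -0.91). With the block 7 fell, against 2.49% of all genes. Reg3g, which binds Gram-positive bacteria, had ratios of 0.49 and 0.56 in control and -2.70 and -2.29 with CHIR99021 (-3.02 ± 0.38, adjusted p = 0.0289). Reg3a had 0.21 and 0.25 in control and -2.53 and -2.69 with CHIR99021 (-2.83 ± 0.36, adjusted p = 0.0289). Reg3d fell as well (-1.20 ± 0.14), and so did the chemokine gene Ccl20. Reg2 fell (-0.91 ± 0.14), and since its probe was not well above background on either CHIR99021 array, its level there is only a bound. Reg1 had ratios of 0.30 and 0.22 in control and -5.35 and -5.20 with CHIR99021, a 46.3-fold difference that passed only with the block (adjusted p = 0.0395 against 0.133). Reg3b, chosen after its values were seen, had 0.06 and -0.06 in control and -5.49 and -5.51 with CHIR99021 and did not pass in either fit (adjusted p = 0.302 and 0.111). With VPA present, the CHIR99021 difference of Reg3b was -0.32 in line 1 and -3.06 in line 2. Reg genes lie near each other in the genome and are alike in sequence, so their probes may cross-hybridise.

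The promoters of Reg3a and Reg3g are shown because these members fell together and both windows hold ATCAAAG, a core bound by TCF/LEF factors. The match, in capitals, lies on the strand opposite to the gene and starts at base 244 of the window for Reg3a and base 197 for Reg3g. Reg3a lies on the plus strand at chr6:78380459-78380758 and Reg3g on the minus strand at chr6:78468825-78469124 (RefSeq, GRCm38.p6).
Reg3a: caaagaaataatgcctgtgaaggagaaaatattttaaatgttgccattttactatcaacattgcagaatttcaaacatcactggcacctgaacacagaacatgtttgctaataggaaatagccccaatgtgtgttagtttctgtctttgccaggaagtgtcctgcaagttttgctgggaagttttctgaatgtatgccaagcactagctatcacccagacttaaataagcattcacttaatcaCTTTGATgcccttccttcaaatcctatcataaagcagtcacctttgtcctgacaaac
Reg3g: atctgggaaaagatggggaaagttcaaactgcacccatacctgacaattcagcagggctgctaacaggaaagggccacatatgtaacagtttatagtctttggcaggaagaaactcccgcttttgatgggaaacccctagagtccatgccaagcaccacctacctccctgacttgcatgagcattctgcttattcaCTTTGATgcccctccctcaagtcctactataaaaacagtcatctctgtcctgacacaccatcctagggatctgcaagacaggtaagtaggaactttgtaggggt
These letters, searched on both strands, stood in 6 of 146 genes that fell (4.11%: Reg3a, Reg3g, Reg2, Ggt1, Golph3l and Tiam2), in 0 of 16 that rose, and in 374 of 11178 tested genes with a window (3.35%). Over all windows the share was 3.73%. The share among genes that fell was close to that of all genes, and no match says only that the letters are not in this window.

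Secretory cell types are given list by list; differences between the lists were not tested. The goblet cell list had 27 tested genes with a median of -0.41. In it 3 genes fell, against 1.01% of all genes, and 0 rose. With the block 6 fell, against 2.49% of all genes. Klk1, a tissue kallikrein, had ratios of 0.44 and 0.40 in control and -1.76 and -1.45 with CHIR99021 (-2.02 ± 0.32, adjusted p = 0.0462). Tpsg1, a membrane tryptase (-0.68 ± 0.09), and Ern2, a stress sensor of mucus-secreting cells (-0.67 ± 0.10), fell as well. Rep15, a Rab15 effector, passed only with the block (-1.78 ± 0.33, adjusted p = 0.0136 against 0.0703). Tff3, the goblet cell trefoil peptide, had ratios of 0.51 and 0.60 in control and 0.25 and 0.49 with CHIR99021, a small difference (-0.19 ± 0.15, adjusted p = 0.691). Atoh1, the factor that sets secretory fate, had -0.23 ± 0.19 (adjusted p = 0.730).

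None of the 15 tested Paneth cell genes passed without the block (median 0.17), and 15 of 28 listed genes had a matched probe. Of the 15, 10 were above 0 and 5 below, from -1.92 to 0.88. In both lines at once, 1 lay over 2-fold lower and 0 over 2-fold higher. Lyz1, lysozyme, had ratios of -0.02 and -0.01 in control and 0.91 and 0.81 with CHIR99021, and Ang4, an antimicrobial ribonuclease, had 0.46 and 0.46 in control and 1.13 and 1.26. Both genes were higher on both CHIR99021 arrays without passing (0.88 ± 0.33 and 0.74 ± 0.23, adjusted p = 0.333 and 0.233). Reg4, listed here and also made by other secretory cells, fell with the block (-1.23 ± 0.24, adjusted p = 0.0398 against 0.0836). None of 24 tuft cell genes passed by limma in either fit, with a median of -0.52, against 0.01 over all genes, and 21 below 0. Dclk1, the tuft cell kinase, differed between lines: its ratios were 0.05 and 0.17 in control and -1.34 and 0.01 with CHIR99021. None of 24 enteroendocrine hormone and granule genes (median -0.06) or 16 enteroendocrine transcription factors (median 0.12) passed in either fit. Chga, chromogranin A, was uneven in the same way as Dclk1, with -0.33 and 0.04 in control and -1.29 and -0.32 with CHIR99021. Ghrl, ghrelin, was lower on both CHIR99021 arrays (0.06 and 0.09 in control, -1.40 and -1.33 with CHIR99021; adjusted p = 0.214). Of 10 microfold cell genes, 1 fell, Ccl20, which is also in the defence list (-1.21 ± 0.15, adjusted p = 0.0280). Of all genes 1.01% fell, or 2.49% with the block.

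Of the 22 genes that rose, 3 stand in the Wnt lists (Nkd1, Wls and Wnt10a); the others named here lie outside them. Of 17 genes of fetal-like epithelium and YAP response, 1 rose, against 0.114% of all genes, and 0 fell, with a median of 0.52. Ly6d, a surface protein anchored by a lipid, had ratios of 0.19 and 0.30 in control and 1.73 and 1.75 with CHIR99021 (a 2.82-fold rise, adjusted p = 0.0235). Anxa1, an annexin, had a higher mean but uneven lines: -0.04 and -0.11 in control and 3.01 and 1.35 with CHIR99021 (2.26 ± 0.50, adjusted p = 0.114). Ly6a, known as Sca-1 and chosen after its values were seen, had 0.23 and 0.39 in control and 2.65 and 1.92 with CHIR99021 (1.97 ± 0.84, adjusted p = 0.401). In all 3 genes both CHIR99021 arrays lay above both control arrays. The probe with the largest rise, AK157407, had no symbol in the gene table (1.98 ± 0.19, adjusted p = 0.0145).

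Of all genes 0.114% rose and 1.01% fell, or 0.405% and 2.49% with the block. Of 34 actin and adhesion genes, 2 rose and 0 fell (median 0.04). With the block 1 fell, the LIM domain gene Crip1 (-0.78, adjusted p = 0.0238 against 0.054). Crip2, a LIM domain protein, had ratios of 0.08 and 0.13 in control and 1.15 and 1.15 with CHIR99021 (1.04 ± 0.09, adjusted p = 0.0135). Flna, filamin A, had -0.15 and -0.14 in control and 1.19 and 0.77 with CHIR99021 (1.13 ± 0.15, adjusted p = 0.0320); its other probes gave 0.00 and 0.93. Of 22 claudins and tight junction genes, Cldn8 rose (0.10 and 0.07 in control, 1.03 and 1.30 with CHIR99021; 1.08 ± 0.14, adjusted p = 0.0289). Of 14 keratins, Krt8 fell (-0.75 ± 0.12, adjusted p = 0.0449), and a second probe gave -0.34. Of 13 Eph receptors and ephrins, which sort cells along the crypt, Epha1 fell (-1.04 ± 0.10, adjusted p = 0.0170). Ephb2, the receptor of crypt cells, had 0.28, and Efnb2, a ligand of villus cells, had -1.01 ± 0.21; neither passed. The other named rises were Snn, Plagl1, Sertad4, Lratd1, Endod1, Pacsin3, Gga2 and Klc3, from 0.70 to 1.06. A dim second probe of Snn gave -0.02, and a second probe of Plagl1 gave 0.10.

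Other signalling lists moved in single members. Of all genes 0.114% rose and 1.01% fell, and 2.49% fell with the block. Of 26 BMP and TGF-beta genes, 1 rose, the fate regulator Id2 (0.64 ± 0.10, adjusted p = 0.0478; median of the list 0.05). Of 18 EGF family genes, Btc, betacellulin, rose by 0.57 ± 0.09, with a dim second probe at 0.11, and Nrg4, neuregulin 4, fell by 1.48 ± 0.22 (adjusted p = 0.0468 and 0.0434; median -0.09). None of 25 Notch and secretory fate genes passed in either fit (median 0.06), and Hes1, the main Notch target, had a difference of -0.03 ± 0.13. None of 15 glycogen genes, the pathway after which GSK3 is named, passed in either fit (median -0.00128). Of 24 genes of the unfolded protein response, Dnajb9, a chaperone of the endoplasmic reticulum, fell (-0.61 ± 0.10, adjusted p = 0.0468; median -0.05). None of 30 interferon and antigen presentation genes passed without the block (median -0.07), and Ifi35 fell with it (-0.80 ± 0.15, adjusted p = 0.0461).

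Genes of glycolysis and hypoxia, and of sterol and fatty acid synthesis, went different ways in the 2 lines. The median of 29 glycolysis and hypoxia genes was 0.72 in line 1 and -0.11 in line 2, with 23 and 13 of them above 0. Adm, a hypoxia-induced peptide, had ratios of 0.17 and 0.11 in control and 2.11 and 0.41 with CHIR99021, and Bnip3, a mitophagy receptor induced by low oxygen, had -0.33 and -0.30 in control and 1.34 and -0.09. Both were chosen after their values were seen. The fructose gene Khk fell in both lines (-1.44 ± 0.19, adjusted p = 0.0312). The median of 28 sterol and fatty acid synthesis genes was 0.43 in line 1 and -0.22 in line 2, with 26 and 8 above 0 and 0 passing by limma in either fit. The lines also lay apart in the other treatments: for VPA minus control, the glycolysis median was 0.86 in line 1 and -0.17 in line 2, and for the combination minus control 1.08 and 0.08. These 3 comparisons share the control arrays. Line, slide and control culture cannot be told apart.

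**Figure D4:**
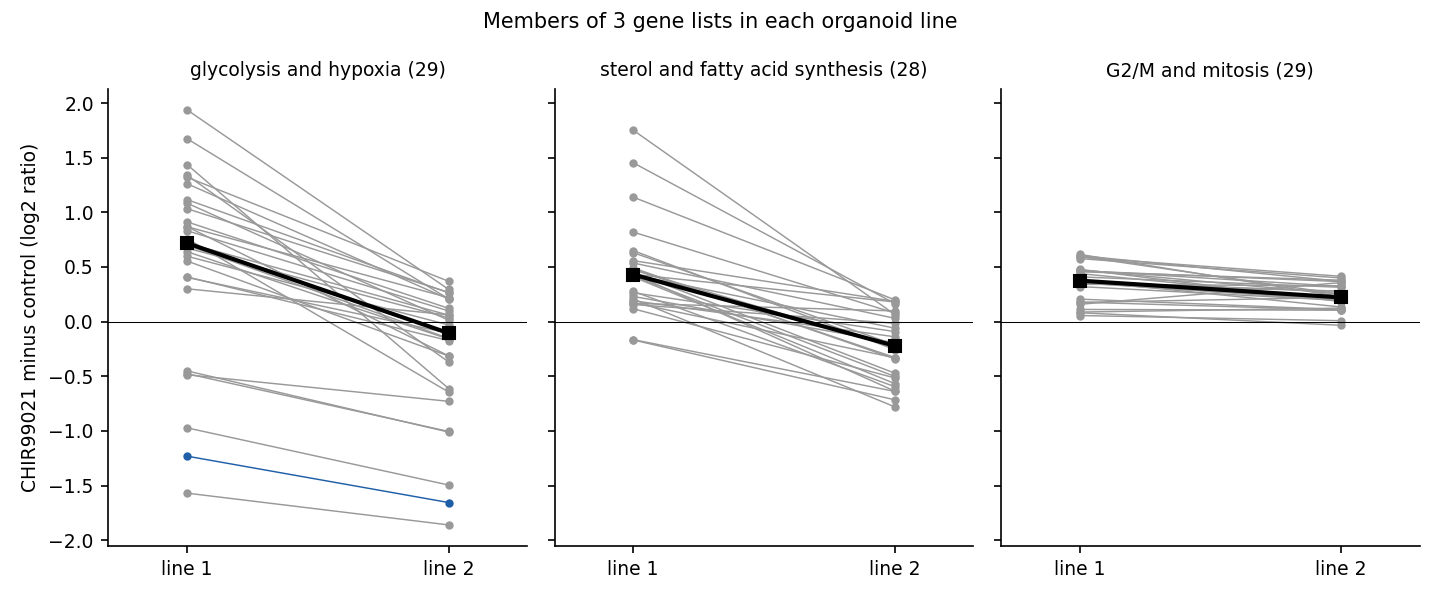
Each thin line joins 1 gene's difference (CHIR99021 minus control, log2 ratio, y axis) in organoid line 1 to that in line 2 (x axis), and squares are list medians. Medians pass from 0.72 to -0.11 for glycolysis and hypoxia and from 0.43 to -0.22 for sterol and fatty acid synthesis, while G2/M genes read 0.38 and 0.22; blue marks Khk, which fell.

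Some genes that fell belong to no list and were chosen after their values were seen. Slc28a3, a carrier of nucleosides, had ratios of 0.31 and 0.30 in control and -1.69 and -1.62 with CHIR99021 (-1.96 ± 0.09, adjusted p = 0.00181). Sphk1, which makes sphingosine 1-phosphate, had -0.04 and 0.01 in control and -2.20 and -2.64 with CHIR99021 (-2.40 ± 0.18, adjusted p = 0.0126). Both genes were far lower on every CHIR99021 array. Atg13 (-0.95 ± 0.09) and Atg101 (-0.73 ± 0.10), parts of the complex that starts autophagy, fell, as did Atg2a, which feeds lipid to the growing autophagosome (-0.63 ± 0.09). Nr1d1, a repressor of the circadian clock, fell too (-0.66 ± 0.09). C4bp, which encodes a complement-binding protein, fell (-1.88). Cfhr2, with -3.17 ± 0.37 and a second probe at -2.25, is among the 15 largest falls. The kallikreins Klk1b4 (-2.01) and Klk1b8 (-1.68), close relatives of Klk1 whose probes may read it, fell too. Of the largest falls, Akr1b7, an aldo-keto reductase, had -2.54 ± 0.40.

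The compound's effect in the presence of VPA was read from the combination minus VPA, on 4 arrays that the first comparison does not use, although limma estimated the variance from all 8. There 215 genes passed (1.12%), 198 lower and 17 higher. Of the 194 genes that fell without VPA, 191 were lower with VPA in both lines, 0 higher in both and 3 mixed, where 32.0% of all genes were lower in both; their median was -0.85. Of these 194 genes, 97 also passed there. Of the 22 that rose, 19 were higher with VPA in both lines and 3 lower in both, where 35.0% of all genes were higher in both; their median was 0.44, and 2 passed, Npm1 and AK157407. The genes called in both comparisons the same way were 45.8% of the calls without VPA and 46.0% of those with it. Only the 4 arrays of the combination and VPA in the fit gave 0 calls by limma in place of 215, and 1446 genes had an unadjusted p under 0.05.

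Single genes read differently beside VPA, but by limma's interaction test no difference between the effects passed: 0 genes were called, the smallest adjusted p was 0.25, and 511 genes had an unadjusted p under 0.05. Adh4 was -4.45 with VPA against -3.60 without, Slc5a4b -2.22 against -2.76, and Cdkn2b -1.52 against -1.33. Frat1 and Frat2 kept differences of -1.13 and -1.24 in line 1 and -1.45 and -1.60 in line 2. Crip2, which rose without VPA (1.04), was at -0.07 with it, a gap that did not pass limma's interaction test (adjusted p = 0.449). With VPA alone the ratios of Crip2 were already 3.30 and 3.35, against 1.15 and 1.15 with CHIR99021 alone. Pacsin3 was at -0.05 and -0.07 against 0.76, and Ccl20 at -0.05 against -1.21. With VPA alone Pacsin3 had ratios of 2.46 and 2.57, and Ccl20 had -0.76 and -1.06. Ang4, higher without VPA, was at -2.02 and -1.03 with it and passed there (adjusted p = 0.0390).

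**Figure D5:**
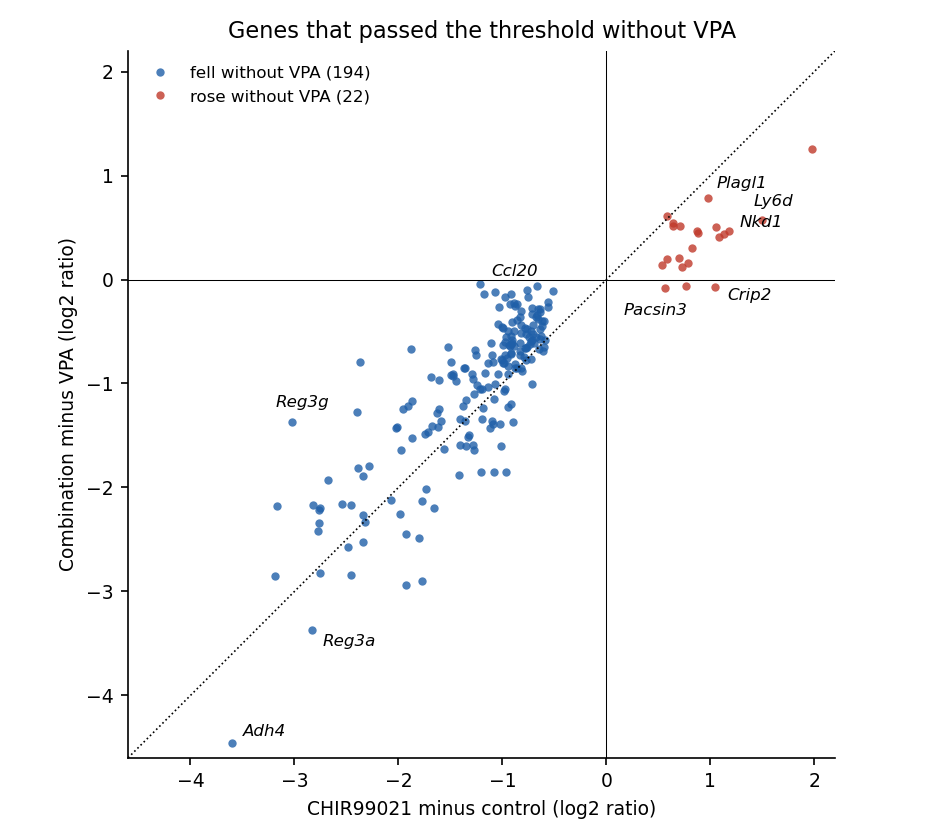
Each point is 1 of the genes that passed without VPA; the x axis is CHIR99021 minus control and the y axis combination minus VPA (log2 ratios), and the dotted line marks equal values. Blue points (fell) lie below 0 on the y axis, with a median of -0.85, and red points (rose) have a median of 0.44, with 3 below 0.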

How the data were processed

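The study compared mouse small intestinal organoids in control medium, CHIR99021, VPA or both, in 2 lines, on 8 two-colour Agilent arrays. Per the file headers, spots were read with Feature Extraction 10.5.1.1. The deposited intensity values are median spot and local background brightness in both dyes; the labels put each sample in Cy5 and its line's control RNA in Cy3 on every array. The log10 ratios that the software deposited per spot, per the file headers, were used as an alternative. Deposited flags of 0 or 1 mark outlier, saturated and well-measured spots. The authors' later steps are not given in the sources used here.

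Background was corrected with limma 3.58.1 (R 4.3.3) by normexp with an offset of 50, followed by within-array loess (control spots weighted 0). Spots marked as outliers were left out of the values and, unlike the usual fit, of the background model. Probes were named by accession through a RefSeq table (GRCm38.p6); 27479 of 41174 matched a symbol. Each gene was represented by its brightest probe, and needed Cy5 signal well above background on both arrays of some group; 79 were dropped for a marked spot. All 8 arrays and 4 groups entered lmFit and eBayes (4 residual degrees of freedom). The replicate number is the line, per the labels, and deviations from group means correlated within a line (r from 0.122 to 0.755 across genes). The line as a replicate block therefore stands beside results it changes. For control and CHIR99021, the groups compared here, r was only 0.245. Pairs of treated groups had r from 0.551 to 0.755, so the pairing by line was weaker for this comparison. The fit was tested on simulated data.

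The members, 47 gene lists and tests were chosen with earlier results of these data known. Named genes were 24 markers, the 15 largest rises and falls with a gene symbol, and, per list, up to 4 genes of lowest adjusted p. Chosen after their values were seen were also Epcam, Cdh1, Cdx2, Cdkn1a, Lct, Dpp4, Scarb1, Slc27a4, Mogat2, Sar1b, Slc7a5, Slc12a2, Slc2a1, Ugt2b36, Ugt2b37, Cyp2c55, Hnf4a, Gata4, Reg2, AK157407 and the motif matches Osbpl6, Golph3l and Tiam2. No coordinates of array probes are given, since the headers name build mm9. Results of some genes are not reported here.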

Additional observations from a re-analysis of the deposited data

Results flagged for a closer look

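The median of 29 glycolysis and hypoxia genes was 0.72 in line 1 and -0.11 in line 2, a gap of 0.82 between the lines. That of 28 sterol and fatty acid synthesis genes was 0.43 and -0.22, a gap of 0.65. The median of 10 microfold cell genes was 0.11 and -0.11, a gap of 0.22. Each is given because the lines moved opposite ways by more than 0.1; the difference was not tested, since each line has 1 array per condition. Cdkn1a, chosen after its values were seen, had 0.56 in line 1 and -0.76 in line 2, and this difference was not tested either.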

How the results depend on the processing

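Under the 12 alternative settings planned and the added one, all named genes that passed kept their direction wherever they were tested, while counts depended on the spread and the normalisation. For CHIR99021 against control (216 genes), Agilent's own log ratio gave 36, Cy5 alone with quantile normalisation 0 (1654 at an unadjusted p under 0.05), outlier spots kept in the background model 0 (1563), and a variance trend with robust fitting 85. The replicate block gave 557, only the compared groups 1084, treated ratios against 0 2567, and the block with only the compared groups, chosen after seeing the data, 1766. Leaving out 1 array gave 1 to 271 genes. The cause of these shifts was not tested, apart from the fewer arrays in some fits. For the combination against VPA (215 genes), outlier spots kept gave 28, Agilent's ratio 34, Cy5 alone 2 (2148 unadjusted), the replicate block 613, only the compared groups 0 (1446), without the control arrays 7, the added setting 1296, and leaving out 1 array 7 to 171. For the difference between the 2 effects, leaving out 1 array gave 0 to 1 gene; with only the compared groups it is the same fit. Of 69 named genes that passed, 13 did so with Agilent's ratio, 30 with the variance trend, 50 with median centring, 59 with the mean of a gene's probes and 69 with the block. The number of arrays, 2 per group, limits the precision.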

Other observations

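Among genes that did not pass in either fit, some stood apart on both CHIR99021 arrays and were chosen after their values were seen. Slc30a2, a zinc exporter found in Paneth cells, had ratios of -0.08 and -0.17 in control and 0.79 and 1.45 with CHIR99021 (1.25 ± 0.32). Zg16, a lectin of goblet cell mucus, had -0.08 and 0.06 in control and -3.23 and -3.01 with CHIR99021 (-3.11 ± 0.82, adjusted p = 0.174). Cyp2c55 had 0.11 and 0.06 in control and 2.34 and 1.47 with CHIR99021.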
